A study of Mus musculus with 2 samples.

Results

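Transforming growth factor beta (TGF-beta) is a cytokine that restrains T cell activation, and the 8 genes described here are its ligand Tgfb1, its receptor chains Tgfbr1 and Tgfbr2, the signal carrier Smad3, the inhibitors Smad7, Ski and Skil, and the response gene Pmepa1. They were named as members beforehand and make up 8 of the 32285 genes counted. Their transcripts were followed across classes of single-cell barcodes from MB49 tumours, a transplanted mouse bladder carcinoma line, labelled day 14, from female and male C57BL/6J mice aged 12 to 14 weeks. There was 1 female and 1 male droplet library, and the number of mice behind each is not stated in the labels. The labels name no genetic change and no agent for either sex.

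Latent TGF-beta has to be released before it can bind. The active ligand brings the type II receptor chain Tgfbr2 together with the type I chain Tgfbr1, whose kinase phosphorylates Smad2 and Smad3, and these enter the nucleus with Smad4. Smad7 blocks the receptor, Ski and Skil bind Smads and repress their targets, and Pmepa1 sequesters Smads. SMAD7, SKIL and PMEPA1 are themselves induced by the signal, so they are feedback genes. In T cells TGF-beta is known for inducing the regulatory T cell factor Foxp3 and Itgae, the integrin chain CD103 that marks T cells retained in epithelia.

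Classes were set by unique molecular identifiers (UMIs, counted molecules) in each barcode. Of 7366 barcodes, 6987 were kept, with 500 genes or more and a mitochondrial share of 10% or less. Keratin-positive barcodes (at least 10 UMIs of Krt8 and Krt18 together) numbered 38 female and 27 male. Treg barcodes (at least 1 Foxp3 UMI, no Cd8a or Cd8b1 UMI) numbered 233 female and 345 male. Other Cd4 barcodes (at least 1 Cd4 UMI, no Foxp3 or Cd8 UMI) numbered 248 female and 231 male. Cd8 barcodes (at least 2 UMIs of Cd8a and Cd8b1 together, no Foxp3 UMI) were divided into Itgae+ (at least 1 Itgae UMI, 163 female and 200 male) and Itgae- (0 Itgae UMIs, 2082 female and 1740 male). The other 1691 barcodes fell in no class, among them 887 with both Foxp3 and Cd8 UMIs. Itgae, Foxp3, Cd4, the Cd8 genes and the keratins chose the classes, and the 8 members did not.

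The cells were sorted for CD4 before loading, per the labels, but 4185 barcodes were Cd8 and 1057 were Treg or other Cd4. The female library held 55880364 UMIs and the male library 50946624. The median per barcode over both libraries was 52229 UMIs in keratin-positive, 6204.5 in Treg, 5206 in other Cd4 and 9709 in Cd8 barcodes. The keratin-positive barcodes had 0 UMIs of the epithelial genes Epcam and Cdh1 in both libraries, so they are called here by their keratins. The 6 epithelial or tumour markers summed to 662 CPM (UMIs scaled to a fixed total per class and library) in female Treg barcodes and 376 CPM in female Cd8 Itgae+ barcodes, against 23.3 and 10.7 CPM in the male ones. A single other Cd4 barcode of the male library held the 106 UMIs of the neutrophil gene S100a8. Between the libraries 16 barcode sequences were shared.

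Depth moved with the members' levels. In Cd8 barcodes Smad7 stood at 406 female and 463 male CPM under 5000 UMIs per barcode, 308 and 319 CPM from 5000 to below 10000, 162 and 188 CPM from 10000 to below 20000, and 114 and 135 CPM at 20000 or more. Pmepa1 in the same 4 bins had 229, 183, 121 and 78.0 female CPM and 166, 118, 64.8 and 47.9 male CPM. Tgfbr1, Tgfbr2, Smad3, Ski and Skil were also lower in the deepest than in the shallowest bin of both libraries, whereas Tgfb1 lay between 371 and 407 female CPM and between 263 and 323 male CPM. Cd8 barcodes were deeper than Treg and other Cd4 barcodes, so each contrast between these classes is also given within windows of depth where that changes it.

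**Figure D1:**
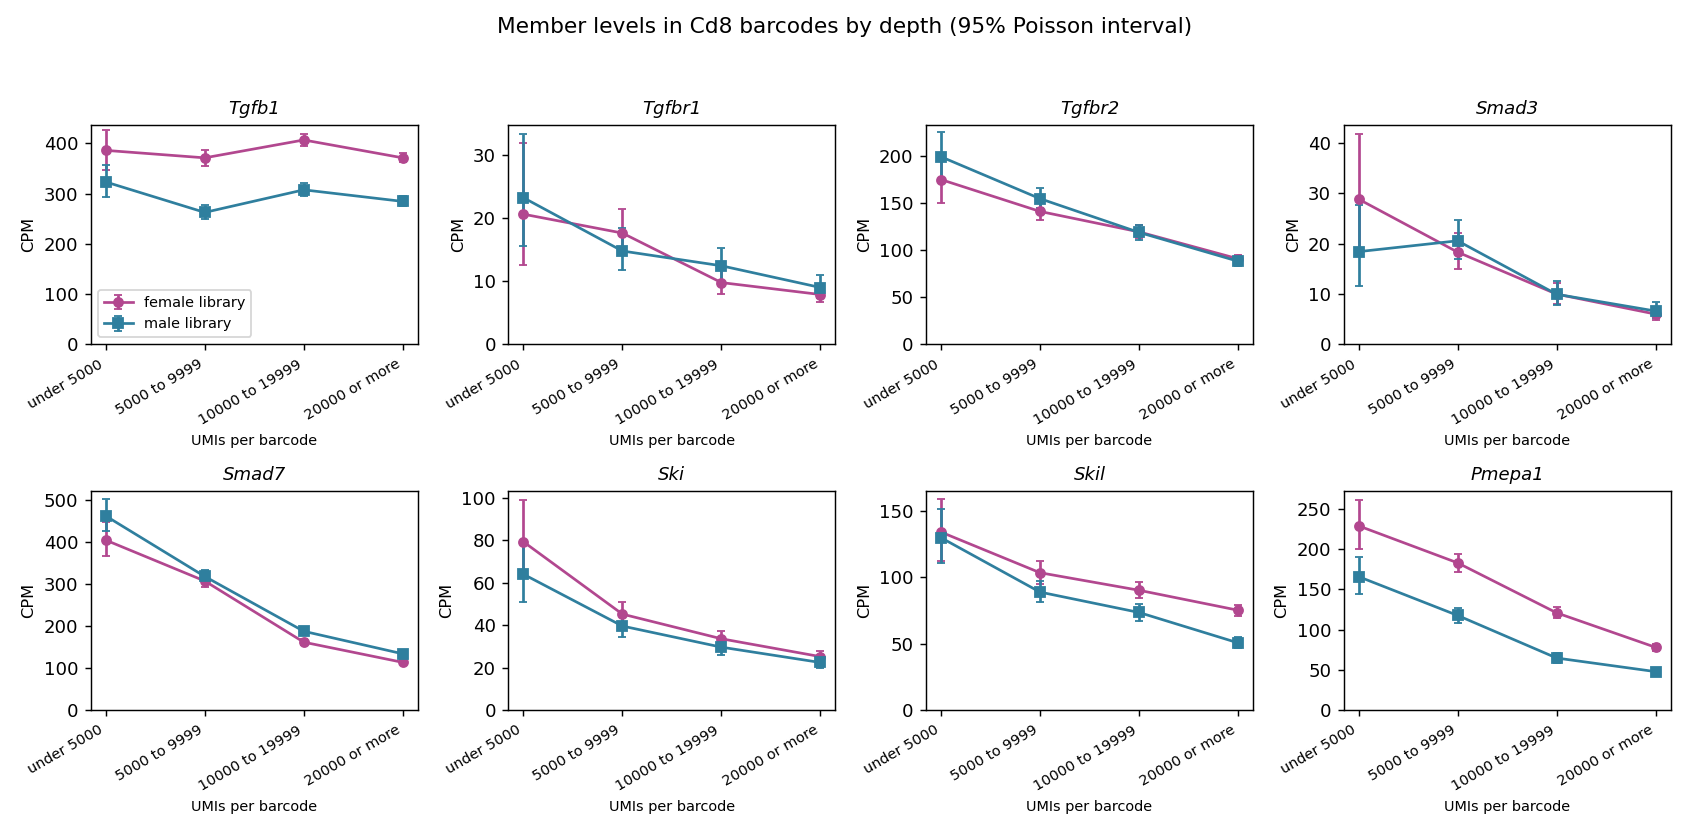
CPM of each member in Cd8 barcodes (vertical axis, from 0) in 4 bins of UMIs per barcode (horizontal axis), for the female library (circles) and the male library (squares), with 95% Poisson intervals that cover counting error only. Smad7 was lower in each deeper bin, down to 114 female and 135 male CPM at 20000 UMIs or more, while Tgfb1 showed no such course.

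Levels are CPM of the summed UMIs of a class in 1 library. They count molecules and not their length, and levels of different genes are not compared. Fewer cells with a transcript and less transcript per cell cannot be told apart from such sums. Contrasts between classes used edgeR's quasi-likelihood test over 10 sums, 5 classes in each of the 2 libraries, with the library as a block and Benjamini-Hochberg adjustment over 11050 genes. A gene was called at an adjusted p under 0.05. With the library as a block, the spread behind these tests is how far class differences disagree between 2 libraries of different sex. The p-values do not measure the spread between mice.

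Tgfb1 (chr7:25687002-25705077, plus strand, GRCm38), the ligand, had 97.8 and 62.1 CPM in keratin-positive barcodes of the female and male library, 289 and 287 CPM in Treg, 361 and 262 CPM in other Cd4, 376 and 303 CPM in Cd8 Itgae+ and 382 and 287 CPM in Cd8 Itgae-. In the female library Treg was the lowest T cell class. Its interval for counting error (265 to 313 CPM) lay below those of the other T cell classes, which began at 332 CPM or more. In the male library other Cd4 was the lowest T cell class, and the intervals of the T cell classes overlapped one another. The keratin-positive barcodes lay below each T cell class in both libraries.

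Tgfbr2 (chr9:116084293-116175360, minus strand), the chain that binds the ligand, set Treg apart from the other T cell classes. It had 41.0 female and 33.0 male CPM in keratin-positive barcodes, 66.4 and 62.2 CPM in Treg, 197 and 193 CPM in other Cd4, 126 and 138 CPM in Cd8 Itgae+ and 108 and 115 CPM in Cd8 Itgae-. The order was the same in both libraries, with other Cd4 highest, Treg lowest of the T cell classes, and no overlap of Treg with another class. Tgfbr1 (chr4:47353222-47414931, plus strand), the signalling chain, was sparse. Its levels ran from 7.86 CPM in male keratin-positive barcodes to 26.2 CPM in male Treg barcodes, with 12.4 CPM in female keratin-positive and 22.5 CPM in female Treg barcodes.

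Smad3 (chr9:63646767-63757994, minus strand) had 26.2 female and 31.5 male CPM in keratin-positive barcodes, 16.0 CPM in Treg barcodes of both libraries, 42.2 and 36.3 CPM in other Cd4, 20.7 and 18.1 CPM in Cd8 Itgae+ and 8.86 and 10.3 CPM in Cd8 Itgae-. Other Cd4 barcodes were highest and Cd8 Itgae- barcodes lowest in both libraries. In shares, 22.2% of female and 14.3% of male other Cd4 barcodes held a Smad3 UMI, against 11.1% and 10.7% of Cd8 Itgae- barcodes, which were deeper. After each barcode was thinned to 2977 UMIs these shares were 12.9% (95% interval 8.85% to 18.0%) and 8.20% (4.86% to 12.8%) in other Cd4, against 3.67% (2.89% to 4.59%) and 4.10% (3.18% to 5.19%) in Cd8 Itgae-.

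Of the inhibitors, Smad7 (chr18:75367529-75395935, plus strand) had 82.0 female and 73.1 male CPM in keratin-positive barcodes, 204 and 256 CPM in Treg, 275 and 314 CPM in other Cd4, 252 and 280 CPM in Cd8 Itgae+ and 161 and 198 CPM in Cd8 Itgae-. Ski (chr4:155154075-155222592, minus strand) had 25.8 and 27.5 CPM in keratin-positive, 34.4 and 40.9 CPM in Treg, 64.3 and 49.3 CPM in other Cd4, 50.2 and 45.0 CPM in Cd8 Itgae+ and 30.9 and 28.6 CPM in Cd8 Itgae-. Skil (chr3:31095058-31122577, plus strand), which encodes SnoN, had 16.7 and 20.4 CPM in keratin-positive, 154 and 131 CPM in Treg, 203 and 176 CPM in other Cd4, 76.9 and 80.1 CPM in Cd8 Itgae+ and 86.7 and 68.2 CPM in Cd8 Itgae-. Skil thus divided Treg and other Cd4 from Cd8, while Smad7 and Ski placed other Cd4 beside Cd8 Itgae+.

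Pmepa1 (chr2:173224458-173276533, minus strand) encodes a membrane protein and was low in keratin-positive barcodes. It had 7.15 female and 3.93 male CPM in keratin-positive barcodes, which rested on 15 and 5 UMIs. It had 149 and 117 CPM in Treg, 171 and 150 CPM in other Cd4, 147 and 104 CPM in Cd8 Itgae+ and 109 and 70.2 CPM in Cd8 Itgae-. The female value was the higher in each class.

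**Figure D2:**
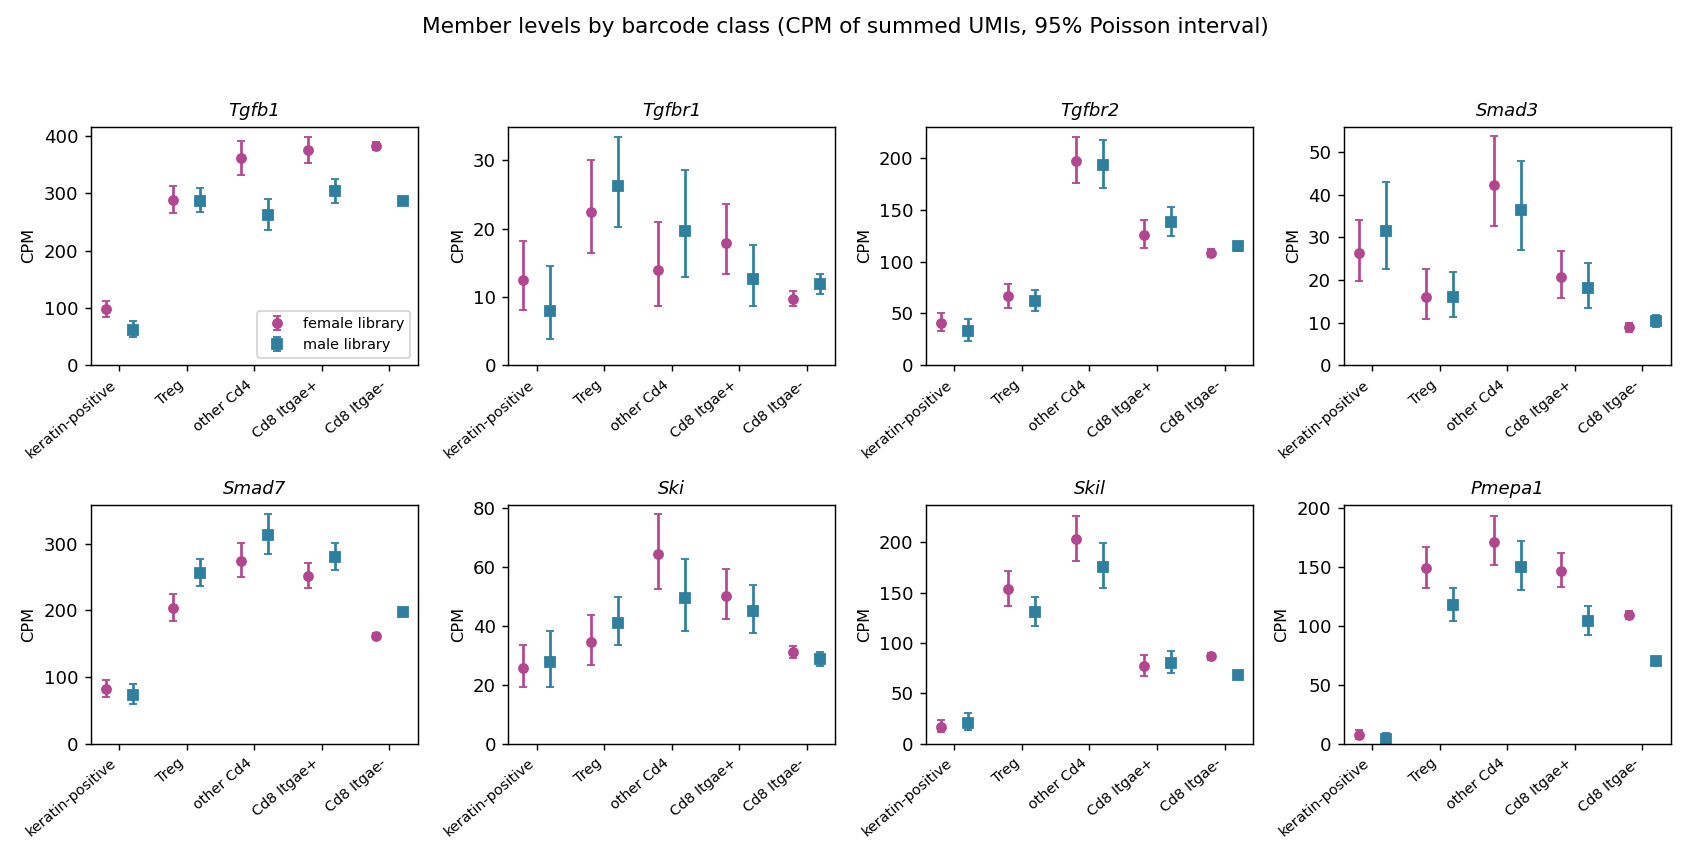
CPM of each member (vertical axis, from 0) in the keratin-positive, Treg, other Cd4, Cd8 Itgae+ and Cd8 Itgae- classes, for the female library (circles) and the male library (squares), with 95% Poisson intervals that cover counting error only. Tgfbr2 in Treg barcodes, 66.4 and 62.2 CPM, stood below the other T cell classes, and Pmepa1 was at 7.15 and 3.93 CPM in keratin-positive barcodes.

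At the edge of the Cd8 class Smad7 hardly differed, while the Smad3 values went opposite ways in the 2 libraries. The edge sets of Cd8 barcodes held 396343 to 579958 UMIs each, so the Smad3 values rest on few UMIs, and no interval was computed. Barcodes with exactly 2 Cd8 UMIs, just inside the Cd8 class, had 426 female and 440 male CPM of Smad7, against 465 and 429 CPM in barcodes with 1 Cd8 UMI, and of Smad3 22.7 and 35.6 CPM, against 53.6 and 27.6 CPM. Barcodes with a single Foxp3 UMI, just inside the Treg class, had 47.5 and 43.6 CPM of Tgfbr2.

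Treg and other Cd4 barcodes both lack Cd8 UMIs and were divided by Foxp3, but the Treg rule did not require a Cd4 UMI. The 5 Cd4 markers summed to 530 female and 740 male CPM in Treg, against 1329 and 1544 CPM in other Cd4 barcodes. Gzmb, Nkg7 and Prf1 summed to 3355 and 3586 CPM in Treg, against 651 and 644 CPM in other Cd4. Tgfbr2, Smad3, Ski and Skil were lower in Treg than in other Cd4 barcodes, so 4 of 8 members fell and 0 rose, where 7.49% of the 11050 genes tested were called lower and 7.84% higher (15.3% in all). Tgfbr2 had a log2 ratio of -1.68 ± 0.13 (SE, adjusted p = 9.66e-05) and Smad3 one of -1.38 ± 0.21 (adjusted p = 0.00256). Ski had -0.66 ± 0.16 (adjusted p = 0.0255) and Skil -0.49 ± 0.13 (adjusted p = 0.0319). Smad7 had -0.44 ± 0.13 and just missed the threshold (adjusted p = 0.0508; DESeq2 called it, adjusted p = 0.0127), and Pmepa1, Tgfb1 and Tgfbr1 had -0.36, -0.17 and 0.48 with adjusted p of 0.110, 0.479 and 0.342. The median of the members was -0.47, beside 0.05 over all genes tested.

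The Tgfbr2 ratio lay between -1.57 and -1.72 in the alternatives run, each library alone and each depth window included. Smad3 kept its call in the depth windows, with -1.38 (adjusted p = 0.0014) at 5000 to 15000 UMIs and -1.52 (adjusted p = 0.0052) at 3000 to 7000 UMIs, and had -1.03 with an adjusted p of 0.078 in thinned barcodes. Ski and Skil were no longer called at 5000 to 15000 UMIs, with -0.45 and -0.33, nor with DESeq2 (adjusted p = 0.064 and 0.054), and Skil also not at 3000 to 7000 UMIs. Ski was at -0.90 in the female library alone and -0.27 in the male library alone. The 4 calls held without T cell barcodes that carried a keratin, Lyz2 or Col1a1 UMI. That filter used no dendritic marker. The dendritic list (H2-Aa, H2-Ab1, Flt3 and Xcr1) summed to 270 female and 316 male CPM in Treg, against 42.2 and 10.2 CPM in other Cd4 barcodes, with Flt3 and Xcr1 at 0 in the male Treg sum. The H2-Aa UMIs came from 7 female and 13 male Treg barcodes. The 5 myeloid markers summed to 185 and 30.7 CPM in Treg, against 9.46 and 8.71 CPM in other Cd4. The part of the dendritic markers in the 4 calls was not tested.

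Tgfbr2 and Smad3 had the largest ratios of the members in this contrast and lie on the same chromosome, and the libraries read transcripts from their start, so their start regions are shown. Each is RefSeq sequence of GRCm38.p6 from 250 bases before to 50 bases after the annotated start, read on the minus strand of chromosome 9, with matches of the Smad-binding letters CAGAC or, on the other strand, GTCTG in capitals.
Smad3 chr9:63757945-63758244: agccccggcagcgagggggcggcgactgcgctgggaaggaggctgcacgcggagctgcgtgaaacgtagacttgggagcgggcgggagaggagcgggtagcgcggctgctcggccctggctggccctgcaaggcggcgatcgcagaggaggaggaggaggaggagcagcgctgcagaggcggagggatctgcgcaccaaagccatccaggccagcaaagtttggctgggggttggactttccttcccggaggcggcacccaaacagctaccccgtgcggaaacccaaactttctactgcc
Tgfbr2 chr9:116175314-116175613: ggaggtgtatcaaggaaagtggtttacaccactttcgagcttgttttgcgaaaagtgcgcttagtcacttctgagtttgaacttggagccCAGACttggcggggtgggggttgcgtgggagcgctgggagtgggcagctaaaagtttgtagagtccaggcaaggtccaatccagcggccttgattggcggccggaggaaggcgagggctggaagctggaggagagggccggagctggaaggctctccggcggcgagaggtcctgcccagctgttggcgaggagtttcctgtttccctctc
The Tgfbr2 region held 1 match, starting 160 bases upstream of the start, and the Smad3 region held 0. A match was found in 2 of the 5 members for which RefSeq gave a promoter, and 49.6% of the 32851 promoters of the same length did. The letters GGCGC or GCGCC were in 36.9% of all promoters and in those of 3 members. The 2 regions were picked after their contrast was seen, and a match is a description of the letters.

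The other genes of the pathway were taken as a list of 53 by role, of which 45 were tested in this contrast. In Treg against other Cd4 barcodes 6 of them rose and 5 fell. Those that rose included 3 of 8 ligand and activation genes. Lrrc32, which encodes GARP and holds latent TGF-beta on the Treg surface, had 103 female and 110 male CPM in Treg barcodes, against 5.67 and 9.43 CPM in other Cd4 barcodes, a log2 ratio of 3.76 ± 0.28 (adjusted p = 9.66e-05). Itgae had 181 and 248 CPM in Treg, against 9.46 and 17.4 CPM in other Cd4 (3.93 ± 0.23, adjusted p = 6.68e-05). Tgfbi, a matrix protein induced by the cytokine, had 19 and 21 UMIs in Treg and 0 in other Cd4 barcodes of both libraries. With the 0 set to 3 counts per library, it was at least 2.33 (female) and 1.98 (male) higher on the log2 scale. The 5 myeloid markers summed to 185 and 30.7 CPM in Treg, against 9.46 and 8.71 CPM in other Cd4 barcodes. Their part in the Tgfbi counts, and that of the dendritic markers, was not tested. Tgfbr3, the co-receptor betaglycan, was lower in Treg at 5.99 and 0.818 CPM, against 22.1 and 32.7 CPM (-3.16 ± 0.53, adjusted p = 0.00406). Its ratio was -1.88 in the female library alone and -5.32 in the male library alone.

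Against Cd8 barcodes, taken as the mean of the Itgae+ and Itgae- classes, Treg barcodes were higher in Skil and Tgfbr1 and lower in Tgfbr2. So 2 of 8 members rose and 1 fell, where 15.7% of all genes tested rose and 13.8% fell (29.5% in all). Skil had a log2 ratio of 0.73 ± 0.11 (adjusted p = 0.000956), Tgfbr1 0.79 ± 0.23 (adjusted p = 0.0306) and Tgfbr2 -1.05 ± 0.11 (adjusted p = 0.000122). Tgfb1 had -0.34 ± 0.12 (adjusted p = 0.0669), and Smad3, Smad7, Ski and Pmepa1 lay between -0.12 and 0.21 with adjusted p of 0.185 or more. The median over the members was 0.02, as over all genes. The mean gave the Cd8 Itgae+ class the same weight as the larger Cd8 Itgae- class. In all Cd8 barcodes pooled, Smad3 had 9.85 female and 11.2 male CPM, against 16.0 CPM in Treg barcodes of both libraries.

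Part of this contrast changed within limits of depth. Skil and Tgfbr2 were called in every alternative with a test, at 0.51 to 0.76 and at -1.04 to -1.50. The Tgfbr1 call ended at 5000 to 15000 UMIs (0.33, adjusted p = 0.43), at 3000 to 7000 UMIs (0.43, adjusted p = 0.38), in T cell barcodes of at most 20000 UMIs (0.47, adjusted p = 0.15) and with DESeq2 (adjusted p = 0.092). Smad3 turned to -0.36 and -0.82 in the 2 windows and Pmepa1 to -0.15 and -0.42. Smad7, not called at full depth, was called lower in Treg at -0.42 (adjusted p = 0.011) in that window and at -0.74 (adjusted p = 0.00026) at 3000 to 7000 UMIs.

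In the pathway list 14 of 44 tested genes rose and 2 fell in Treg against Cd8 barcodes, Itgae being left out because it divides the Cd8 classes. Lrrc32 had a ratio of 5.62 ± 0.20 (adjusted p = 4.6e-07), with 4.92 and 3.32 CPM in Cd8 Itgae+ and 0.768 and 1.13 CPM in Cd8 Itgae-. Itgb8, whose integrin frees the latent ligand, had 75.4 and 89.6 CPM in Treg and 3.69 CPM or less in both Cd8 classes (5.22 ± 0.23, adjusted p = 1.21e-06). The receptor Acvrl1 (ALK1) rose by 2.67 ± 0.58 (adjusted p = 0.00743) and Tgfbr3 fell by 2.09 on the log2 scale (adjusted p = 0.0109). Acvrl1 was sparse, with 16 UMIs in Treg barcodes of each library, or 7.99 female and 6.55 male CPM. It had 5 and 7 UMIs in Cd8 Itgae+ and 18 and 8 UMIs in Cd8 Itgae- barcodes. The Tgfbr3 ratio was -0.92 in the female library alone and -4.05 in the male library alone, where Treg barcodes held 2 Tgfbr3 UMIs. Treg barcodes hold no Cd8a or Cd8b1 UMI by the rule, but the cytotoxic genes Gzmb, Nkg7 and Prf1 summed to 3355 female and 3586 male CPM in them.

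Other Cd4 barcodes had more of 6 members than Cd8 barcodes. Smad3, Skil, Tgfbr2, Pmepa1, Ski and Smad7 rose and 0 fell, where 11.4% of all genes tested rose and 10.9% fell (22.3% in all). Smad3 had a log2 ratio of 1.48 ± 0.17 (adjusted p = 0.000546) and Skil 1.23 ± 0.11 (adjusted p = 0.000152). Tgfbr2 had 0.63 ± 0.10 (adjusted p = 0.00235), Pmepa1 0.57 ± 0.11 (adjusted p = 0.00739), Ski 0.55 ± 0.13 (adjusted p = 0.0184) and Smad7 0.38 ± 0.11 (adjusted p = 0.0363). Tgfb1 and Tgfbr1 had -0.17 and 0.32, with adjusted p of 0.366 and 0.469.

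Within windows of depth most of these differences became smaller. At 5000 to 15000 UMIs 2 members were called, Skil at 0.95 (adjusted p = 0.0003) and Smad3 at 1.02 (adjusted p = 0.0037). At 3000 to 7000 UMIs 1 was called, Skil at 0.96 (adjusted p = 0.00039), with Smad3 at 0.70 (adjusted p = 0.17). Tgfbr2 was at 0.35 and 0.19 in these windows, and Pmepa1 at 0.07 and -0.03. Smad7 turned to -0.15 and -0.34, so its higher level in other Cd4 barcodes was not seen at matched depth. Skil was called in every alternative with a test, at 0.95 to 1.25.

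In the pathway list 16 of 44 tested genes rose and 1 fell in other Cd4 against Cd8 barcodes. The gene that fell was Id2, a brake on differentiation factors, singled out after its value was seen (-1.24 ± 0.11, adjusted p = 0.000121). The largest ratios among the called genes were those of Itgb8 (2.67 ± 0.35, adjusted p = 0.00105), the activin receptor Acvr2a (2.37 ± 0.42, adjusted p = 0.00434), Spsb1, which takes part in the degradation of Tgfbr2 (2.34 ± 0.42, adjusted p = 0.00447), and Lrrc32 (1.86 ± 0.38, adjusted p = 0.0086). Acvr2a had 10.7 and 10.9 CPM in other Cd4, against 1.82 to 2.46 CPM in the 4 Cd8 sums.

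**Figure D3:**
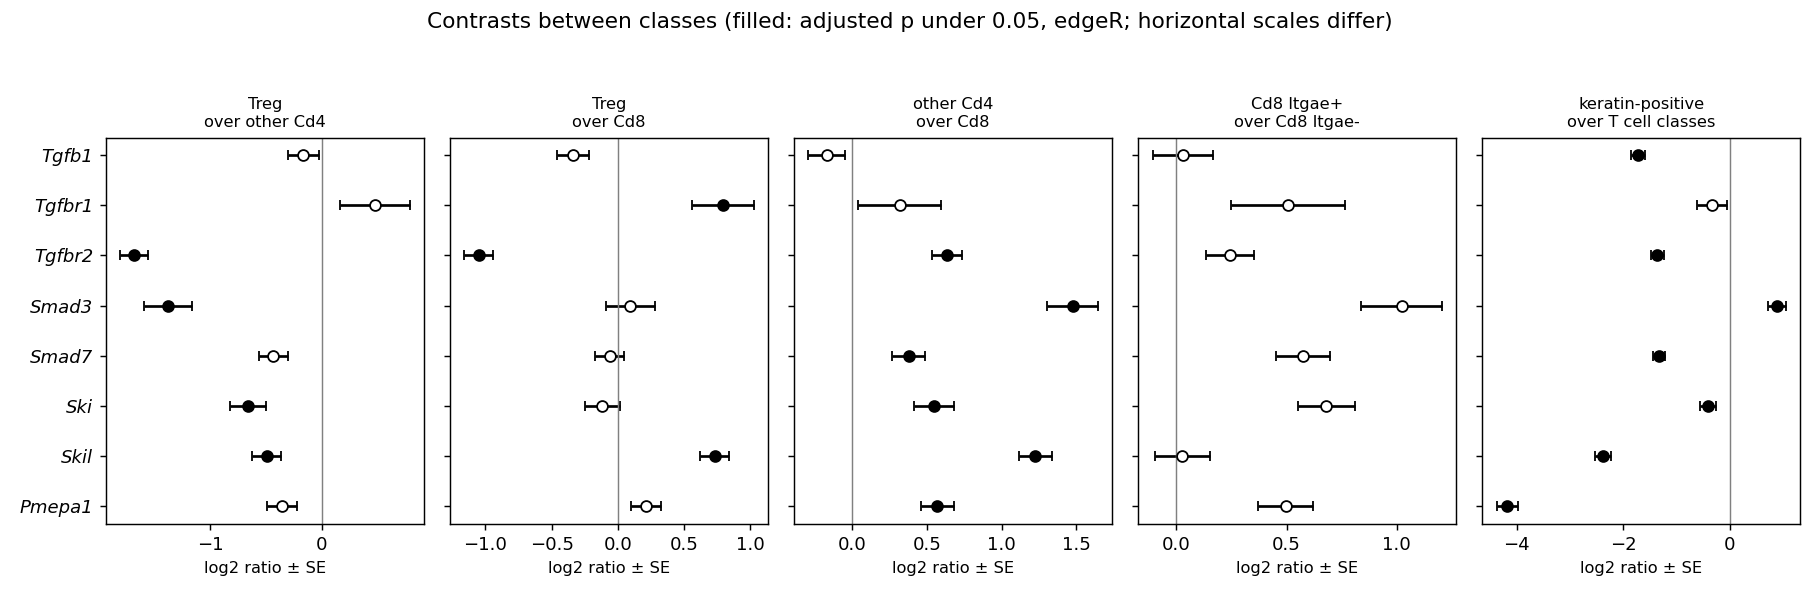
Log2 ratio with its SE (horizontal axis, scales differ between panels) of each member in 5 contrasts between classes over the 10 sums of 5 classes in 2 libraries, with filled points for an adjusted p under 0.05 by edgeR's quasi-likelihood test. Tgfbr2 lay at -1.68 in Treg over other Cd4 and -1.05 in Treg over Cd8, and no point is filled in Cd8 Itgae+ over Cd8 Itgae-.

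Within Cd8 the question was whether barcodes with Itgae, itself a target of the pathway, differed in the members. Of the 8 members 0 were called, while 0.389% of all genes tested were (0.371% higher and 0.0181% lower). The 8 log2 ratios were all positive, with a median of 0.50 beside 0.01 over all genes (those of Tgfb1, Skil and Pmepa1 turned negative under some alternatives), and 4 had an unadjusted p under 0.05. Smad3 had 20.7 and 18.1 CPM in Itgae+, against 8.86 and 10.3 CPM in Itgae- barcodes, a ratio of 1.02 ± 0.18 (adjusted p = 0.0637). Ski had 0.68 ± 0.13 (adjusted p = 0.0793), Smad7 0.58 ± 0.12 (adjusted p = 0.108) and Pmepa1 0.50 ± 0.12 (adjusted p = 0.170). For these 4 genes the Itgae+ value was the higher in both libraries. Tgfb1 and Skil had 0.03 each, and Tgfbr1 and Tgfbr2 0.51 and 0.24. Tgfbr1 was at 0.88 (0.42 to 1.31, counting error only) in the female library alone and 0.08 (-0.48 to 0.60) in the male library alone, and Skil at -0.17 and 0.23.

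The count of called members in this split depended on the processing. It was 1 with DESeq2 (Smad7, adjusted p = 0.0017), 2 in thinned barcodes (Smad7 and Ski), 3 at 5000 to 15000 UMIs, and 4 in T cell barcodes of at most 20000 UMIs, where Smad3 had 1.10 (adjusted p = 0.0086) and Smad7 0.67 (adjusted p = 0.0018). It was 0 at 3000 to 7000 UMIs, where Smad3 had 0.49 and Pmepa1 -0.14. Without barcodes that carried UMIs of other cell types, 3 members were called, with Smad3 at 1.03, Ski at 0.76 and Smad7 at 0.65. The genes called among all tested moved too, from 26 to 616 over the alternatives (43 as reported, 69 with DESeq2).

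By the number of Itgae UMIs in a Cd8 barcode, Smad3 had 8.86, 18.9, 13.8 and 33.4 CPM at 0, 1, 2 and 3 or more UMIs in the female library, and 10.3, 12.1, 21.9 and 26.6 CPM in the male library. Smad7 had 161, 236, 236 and 305 female CPM and 198, 238, 335 and 317 male CPM. Both genes were lowest at 0 Itgae UMIs in each library, and the steps above 0 were not monotonic in both. The bins above 0 held 40 to 90 barcodes each, with median depths of 7748 to 10016.5 UMIs, against 10638.5 female and 8921.5 male at 0.

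**Figure D4:**
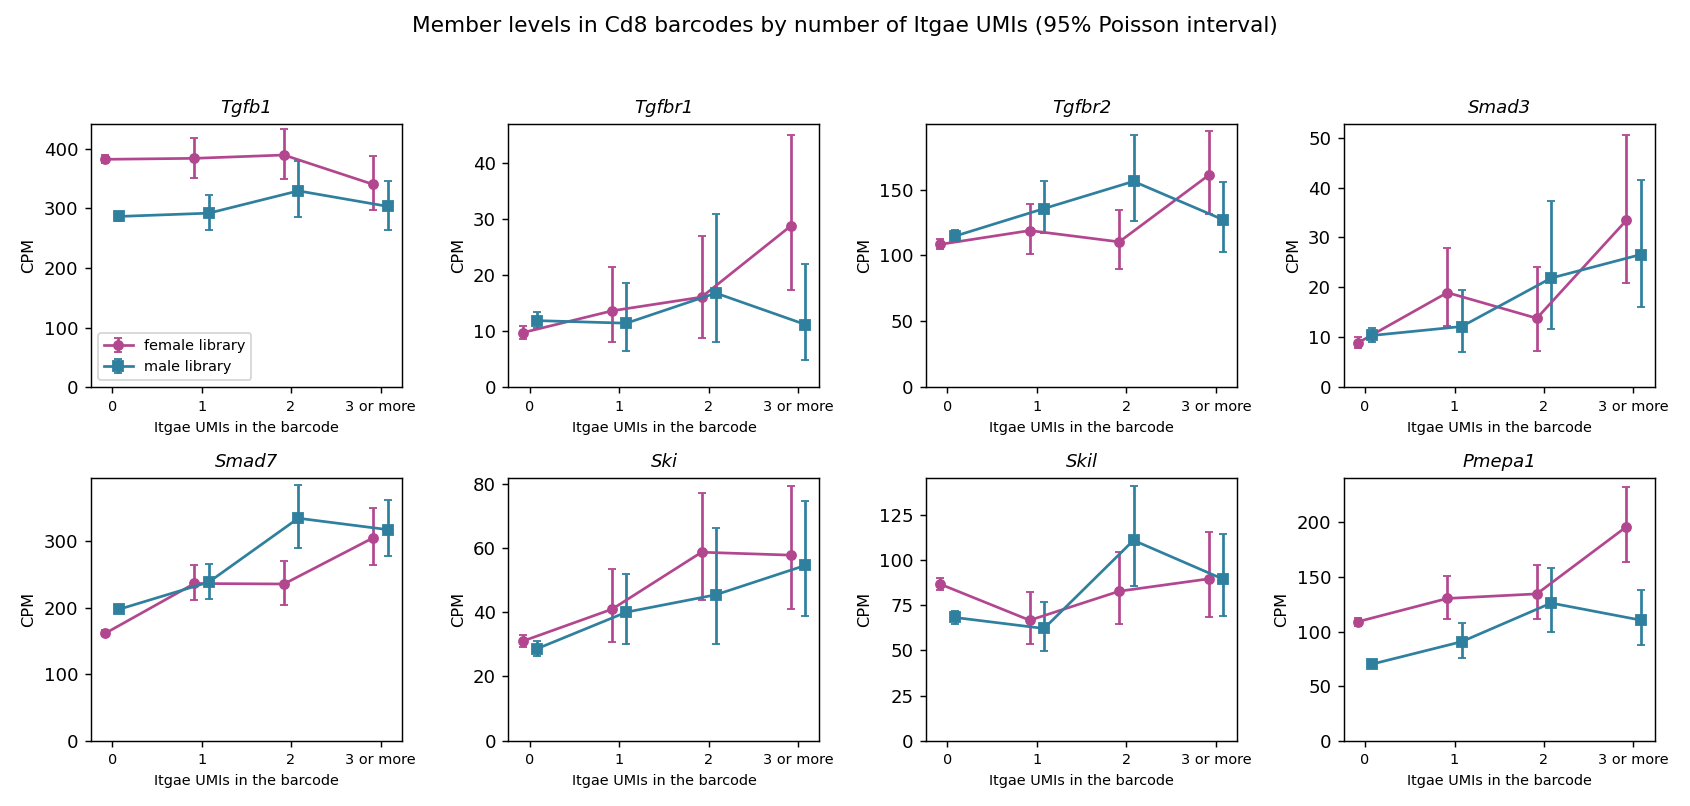
CPM of each member (vertical axis, from 0) in Cd8 barcodes with 0, 1, 2 and 3 or more Itgae UMIs (horizontal axis), for the female library (circles) and the male library (squares), with 95% Poisson intervals that cover counting error only. Smad3 and Smad7 were lowest at 0 Itgae UMIs in both libraries, and Tgfb1 stayed between 340 and 390 CPM in the female library.

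From the pathway list 2 of 44 tested genes rose in Cd8 Itgae+ barcodes and 0 fell. Gpr15, a homing receptor known as a TGF-beta target, had 11.2 female and 9.96 male CPM in Itgae+, against 1.15 and 1.82 CPM in Itgae- barcodes (2.86 ± 0.43, adjusted p = 0.0393). Ldlrad4, an inhibitor related to Pmepa1, had 60.7 and 62.7 CPM, against 36.3 and 37.2 CPM (0.75 ± 0.10, adjusted p = 0.0242).

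The same split was tested in Treg and other Cd4 barcodes, in a fit of 12 sums and 9676 genes. In Treg 0 members were called and 0.0103% of all genes were. Tgfb1 had 383 female and 328 male CPM in Treg Itgae+, against 208 and 219 CPM in Treg Itgae- barcodes, a ratio of 0.69 ± 0.18 with an unadjusted p of 0.00192 and an adjusted p of 0.206. DESeq2 called it (adjusted p = 0.0053), and at 3000 to 7000 UMIs it was at 0.25 (adjusted p = 0.89). By Itgae UMIs in Treg barcodes, Tgfb1 had 208, 274, 374 and 440 female CPM at 0, 1, 2 and 3 or more, and 219, 295, 326 and 346 male CPM. Smad3 went the other way in Treg, at 11.9 and 12.4 CPM in Itgae+ and 19.4 and 21.9 CPM in Itgae-, and was not called (-0.79 ± 0.38, adjusted p = 0.512). In other Cd4 the Itgae+ class held 8 female and 14 male barcodes, and 0 members were called, where 0.134% of all genes were (0.0827% higher and 0.0517% lower), also 0 at an unadjusted p under 0.05 and 0 with DESeq2. Between Treg and Cd8, and between other Cd4 and Cd8, the difference of the splits was called for 0 members, beside 0.031% (0.0103% higher, 0.0207% lower) and 0.0723% (0.0413% higher, 0.031% lower) of all genes. From the pathway list Itgb8 was higher in other Cd4 Itgae+ than Itgae- barcodes (3.96 ± 0.54, adjusted p = 0.0160). In each of these differences 2 members had an unadjusted p under 0.05 and DESeq2 called 0.

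Keratin-positive barcodes had less of 6 members than the mean of the T cell classes, and more of Smad3. So 6 of 8 fell and 1 rose, where 33.6% of all genes tested fell and 35.4% rose (69% in all). Pmepa1 had a log2 ratio of -4.17 ± 0.20 (adjusted p = 4.36e-07), Skil -2.37 ± 0.16 (adjusted p = 1.5e-06) and Tgfb1 -1.72 ± 0.14 (adjusted p = 3.91e-06). Tgfbr2 and Smad7 had -1.36 ± 0.12 (adjusted p = 8.39e-06) and -1.32 ± 0.12 (adjusted p = 9.47e-06), and Ski -0.40 ± 0.15 (adjusted p = 0.0407). Ski was not called with DESeq2 (adjusted p = 0.20), nor in edgeR with DESeq2's size factors (adjusted p = 0.071) or thinned barcodes (adjusted p = 0.58). Smad3 had 0.89 ± 0.17 (adjusted p = 0.00103), and -0.39 (adjusted p = 0.76) when the barcodes were thinned to the same depth. In plain CPM Smad3 was at 0.48 in the female library alone and 0.79 in the male library alone. The fitted ratios of Smad3, Tgfb1, Tgfbr2, Smad7, Ski and Pmepa1 lay above the CPM ratios of both libraries. Those of Tgfbr1 and Skil lay between them. Of the keratin-positive and T cell barcodes, 11 were in both kinds of class. Without keratin-positive barcodes that carried Cd3e or Trac UMIs, Pmepa1 was at -6.58, and the same 7 members were called. Keratin-positive barcodes had a median of 52229 UMIs, against 9709 in Cd8 barcodes. Among Cd8 barcodes Tgfbr2, Smad7, Ski, Skil and Pmepa1 were also lower in the deepest than in the shallowest bin. Thinned, Tgfbr2 was at -1.46 and Smad7 at -1.26 (edgeR, adjusted p = 0.0038 and 0.00036), but thinning leaves unchanged which barcodes were deep. The part of depth in these ratios was not tested.

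In the pathway list 20 of 44 tested genes rose and 16 fell in keratin-positive barcodes, where 35.4% of all genes tested rose and 33.6% fell. Receptor genes rose in 6 of 8 cases and fell in 0. Of 8 ligand and activation genes 3 rose and 5 fell, and of 13 genes of restraint and turnover 3 rose and 7 fell. Of 5 Smads and anchors 3 rose and 1 fell, and of 10 targets 5 rose and 3 fell. Ltbp1 and Ltbp4, which store latent TGF-beta in the matrix, had 30.5 and 50.3 CPM and 21.5 and 28.3 CPM in the female and male keratin-positive sums, and 3.99 CPM or less in every T cell sum. Bambi, a decoy receptor, and Gpr15 had 0 UMIs in keratin-positive barcodes of both libraries. Against the mean of the T cell classes Bambi was lower by at least 2.22 (female) and 2.06 (male) on the log2 scale, with the 0 set to 3 counts per library.

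The series set female against male tumours. With 1 library per sex this difference was not tested, and each ratio carries a 95% interval for counting error only. A difference of at least 1.5-fold was marked. In all Cd8 barcodes 1 member of 8 was, beside 1.94% of 7667 measured genes (0.574% higher and 1.37% lower in the female library). Pmepa1 had 112 female and 73.8 male CPM, a log2 ratio of 0.60 (0.52 to 0.68). Within the 4 bins of depth the Pmepa1 ratio was 0.46, 0.64, 0.90 and 0.70, so the female value was the higher in each. Each barcode weighted equally gave 0.55, just under the limit.

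Tgfb1 had 382 female and 288 male CPM in Cd8 barcodes (0.41, 0.36 to 0.45), and 0.26, 0.50, 0.40 and 0.38 in the bins of depth. In other Cd4 barcodes it had 0.46 (0.27 to 0.66) and in Treg 0.01 (-0.16 to 0.17). Smad7 was lower in the female library, with 169 and 207 CPM in Cd8 (-0.29, -0.35 to -0.24), -0.33 (-0.51 to -0.15) in Treg and -0.19 (-0.38 to 0.01) in other Cd4 barcodes, where it turned to 0.04 at 3000 to 7000 UMIs. In the bins of depth its Cd8 ratio was -0.19, -0.05, -0.21 and -0.24, and at 3000 to 7000 UMIs it was 0.03. In Cd8 Itgae+ barcodes Smad7 had -0.15 (-0.30 to -0.0044) and turned to values of 0.08 to 0.55 in 5 alternatives. Skil had 0.30 (0.22 to 0.39) in Cd8, and 0.05, 0.22, 0.30 and 0.57 in the bins of depth.

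In Cd8 Itgae+, Treg and other Cd4 barcodes 0 of 8 members reached 1.5-fold, beside 9.42% (4.72% higher, 4.7% lower), 13.7% (7.3% higher, 6.37% lower) and 15.7% (8.05% higher, 7.7% lower) of measured genes. In Cd8 Itgae- barcodes Pmepa1 did (0.64, 0.55 to 0.72), beside 1.92% of genes (0.509% higher, 1.41% lower). In keratin-positive barcodes 7 members were measured and 2 reached it, beside 16.5% of genes (10.7% higher, 5.88% lower): Tgfb1 at 0.65 (0.27 to 1.05) and Tgfbr1 at 0.66 (-0.44 to 1.87). Pmepa1 was higher in the female library in the 5 classes, at 0.86 (-0.67 to 2.68) in keratin-positive, 0.34 (0.10 to 0.58) in Treg, 0.19 (-0.08 to 0.46) in other Cd4 and 0.50 (0.28 to 0.72) in Cd8 Itgae+ barcodes. The intervals in keratin-positive and other Cd4 barcodes held 0, and the ratio was -0.44 in keratin-positive barcodes without Cd3e or Trac UMIs and -0.22 in Cd8 Itgae+ barcodes of 3000 to 7000 UMIs. From the pathway list Id3, a brake on differentiation factors that was singled out after its values were seen, differed in Cd8, with 9.38 female and 25.1 male CPM (-1.42, -1.62 to -1.22), and had the opposite sign in Treg, with 23.5 female and 11.9 male CPM (0.98, 0.29 to 1.70).

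**Figure D5:**
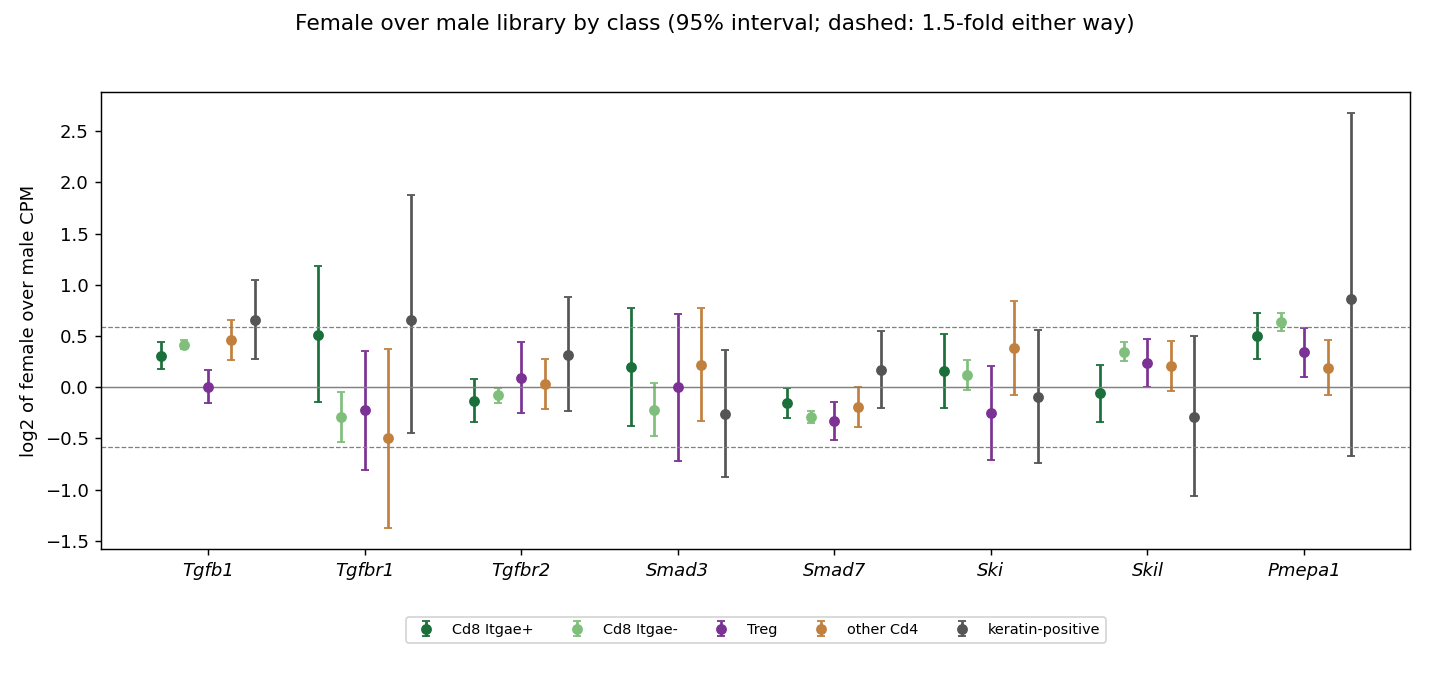
Log2 of female over male CPM (vertical axis) of each member in 5 classes (colours), with 95% intervals for counting error only and dashed lines at 1.5-fold in either direction. Pmepa1 lay above 0 in the 5 classes and Smad7 below 0 in the 4 T cell classes, where signs turned under some alternatives, those of both genes in Cd8 Itgae+ barcodes among them.

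Over the 10 sums, the genes whose log2(CPM + 1) was most like that of a member were, by Pearson's r, Tob1 (0.92) and Tmem251 (0.92) for Smad3, Irf2bpl (0.93) and Mbtd1 (0.92) for Ski, Smpd2 (0.95) and Il10 (0.94) for Tgfbr1, and Arid5a and Gch1 (0.99 each) for Tgfbr2. At an r of 0.9 or more stood 3 of the 7418 genes compared for Smad3, 9 for Ski, 20 for Tgfbr1 and 168 for Tgfbr2, but 1102 for Smad7, 1105 for Tgfb1, 1254 for Skil and 1603 for Pmepa1. The nearest of those were Pik3r1 and Armc7 for Tgfb1, Rasa3 and Kmt2c for Smad7, Rprd2 and Ripk1 for Skil, and Slc35d1 and Mknk2 for Pmepa1, each at 0.99. Among the members, Tgfb1 and Pmepa1 had the highest r with each other (0.96) and Smad3 had -0.38 with Tgfb1. The sums share libraries and depth, and the keratin-positive sums stand apart in most genes, so these values describe the 10 sums.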

How the data were processed

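The deposited values are raw UMI counts of each gene in each barcode, which per the file headers came from Cell Ranger 7.0.1. GRCm38 and Seurat 5 stand in the submitters' processing notes without a stated use. Doublets were not called. The members and lists were chosen with earlier results of these data known. The pathway genes named are up to 4 called genes per contrast with the largest ratio and the same sign in both libraries.

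UMIs were summed per library and class with Python 3.11.15. Contrasts used edgeR 4.0.16 (R 4.3.3): TMM, filterByExpr, the library as a block, and Benjamini-Hochberg adjustment. A run on simulated data gave every class the same gene means, apart from set changes in an Itgae+ class. It held no library effect, so it does not show how the test behaves on these sums. An SE is the log2 ratio divided by the square root of its F. The library pairs the classes, since each library's classes come from the same sample. Intervals are exact Poisson or Clopper-Pearson, and cover counting error only. Thinned fits use 1 random draw, and thinned shares are the expected share over draws. A gene counted as measured for female over male from 10 CPM in either library and 20 UMIs in all. Alternatives were DESeq2 1.42.0, its size factors, no filter, no block, each library alone, stricter cell filters, depth limits, thinning, barcodes without other cell types' UMIs, and at least 2 Itgae UMIs. The windows of 3000 to 7000 UMIs, and of 5000 to 15000 UMIs outside the Itgae splits, were added after seeing the data. Coordinates are from GENCODE M21.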

Additional observations from a re-analysis of the deposited data

Results flagged for a closer look

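Smad3 went opposite ways with Itgae in the libraries of both sexes, lower in Treg Itgae+ than in Treg Itgae- barcodes and higher in Cd8 Itgae+ than in Cd8 Itgae- barcodes. In the Treg split its log2 ratio was -0.70 (-1.90 to 0.42, counting error only) in the female library. It was -0.82 (-1.80 to 0.16) in the male library, so both intervals held 0. The difference of the splits was -1.80, and edgeR's quasi-likelihood test of it missed the threshold (adjusted p = 0.258). It rests on 11 female and 19 male Smad3 UMIs in Treg Itgae+ barcodes.

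In other Cd4 Itgae+ over Itgae- barcodes Ski had a log2 ratio of -0.084 (-1.74 to 1.19, counting error only) in the female library. In the male library it had -2.16 (-7.49 to 0.37), so both values were negative and both intervals held 0. Ski was higher in Cd8 Itgae+ than in Cd8 Itgae- barcodes in both libraries. The difference of the splits was -1.57 (edgeR's quasi-likelihood test, adjusted p = 0.332) and rests on 5 female and 1 male Ski UMIs in other Cd4 Itgae+ barcodes. It was -0.78 in the female library alone and -2.82 in the male library alone.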

How the results depend on the processing

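Members called in each contrast, with the count as reported first, changed by more than 1.5 times as follows. Cd8 Itgae+ over Cd8 Itgae- had 0, and 1 with DESeq2, 4 with no filter on low counts, 4 in T cell barcodes of at most 20000 UMIs, 2 thinned, 3 without barcodes with UMIs of other cell types, 3 with at least 2 Itgae UMIs and 3 at 5000 to 15000 UMIs. Treg over other Cd4 had 4, and 2 at 5000 to 15000 UMIs. Treg over Cd8 had 3, and 5 thinned. Other Cd4 over Cd8 had 6, and 3 at no more than 20000 UMIs, 2 thinned, 2 at 5000 to 15000 and 1 at 3000 to 7000 UMIs. The Treg Itgae split had 0, and 1 with DESeq2 and 1 with no filter. Its difference from the Cd8 split had 0, and 2 with no filter and 1 at 5000 to 15000 UMIs. The other Cd4 difference had 0, and 1 thinned. Members at 1.5-fold, female over male, numbered 1 in Cd8, and 0 with equal weight per barcode and 0 at 3000 to 7000 UMIs. They numbered 0 in Cd8 Itgae+, and 2 with equal weight, 3 at no more than 20000 UMIs, 1 without other cell types' UMIs, 3 at 5000 to 15000 and 1 at 3000 to 7000 UMIs. In Cd8 Itgae- there was 1, and 0 with equal weight. In Treg there were 0, and 2 at 5000 to 15000 and 1 at 3000 to 7000 UMIs. In other Cd4 there were 0, and 1 with equal weight, 1 at 5000 to 15000 and 1 at 3000 to 7000 UMIs. In keratin-positive barcodes there were 2, and 1 with equal weight and 1 without other cell types' UMIs. The cause of these changes was not tested.

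Signs that turned, in the order at most 20000 UMIs, thinned, 5000 to 15000 and 3000 to 7000 UMIs, were Smad3 (-0.30, -0.38, -0.36, -0.82) and Pmepa1 (-0.10, -0.11, -0.15, -0.42) in Treg over Cd8, and Smad7 (-0.0071, -0.068, -0.15, -0.34) in other Cd4 over Cd8. There, Tgfbr1 was at -0.073, -0.13 and -0.61 at no more than 20000, at 5000 to 15000 and at 3000 to 7000 UMIs, and Pmepa1 at -0.025 at 3000 to 7000 UMIs. In the Cd8 split Tgfb1 turned to -0.019 with no filter and -0.016 at 5000 to 15000 UMIs, Skil to -0.020 with no filter and -0.17 at 3000 to 7000 UMIs, and Pmepa1 to -0.14 at 3000 to 7000 UMIs. In the Treg split Ski turned to -0.10 at no more than 20000 UMIs, -0.14 thinned, -0.12 without other cell types' UMIs, -0.23 at 5000 to 15000 and -0.13 at 3000 to 7000 UMIs. Smad7 there turned to -0.039 thinned, -0.067 without other cell types' UMIs and -0.056 at 3000 to 7000 UMIs. Skil and Pmepa1 there turned to -0.067 and -0.15 thinned, -0.012 and -0.095 at 5000 to 15000, and -0.11 and -0.34 at 3000 to 7000 UMIs. Smad3 in keratin-positive over T cell classes was at -0.39 thinned. Female over male, signs turned at 3000 to 7000 UMIs for Tgfbr1 (0.34), Smad3 (0.29) and Smad7 (0.033) in Cd8, Tgfbr1 (0.31) and Smad3 (0.20) in Cd8 Itgae-, Smad7 (0.55) and Pmepa1 (-0.22) in Cd8 Itgae+, Smad7 (0.044) in other Cd4 and Tgfbr2 (-0.0097) in Treg. At 5000 to 15000 UMIs they turned for Smad7 (0.19) and Tgfbr2 (0.11) in Cd8 Itgae+ and Tgfbr1 (0.22) and Ski (0.075) in Treg. With equal weight they turned for Smad7 in Cd8 Itgae+ (0.20), Tgfbr1 in Treg (0.14), Tgfbr2 in other Cd4 (-0.022), and Ski (0.34) and Skil (0.43) in keratin-positive barcodes. At no more than 20000 UMIs Smad7 (0.15) and Tgfbr2 (0.036) in Cd8 Itgae+ and Tgfbr1 in Treg (0.035) turned. Without other cell types' UMIs Smad7 (0.080) and Skil (0.10) in Cd8 Itgae+ and Pmepa1 in keratin-positive barcodes (-0.44) did. Other turns were to values within 0.015 of 0.

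Without the replicate block the counts were 0, 3, 3, 4 and 7 for Cd8 Itgae+, Treg over other Cd4, Treg over Cd8, other Cd4 over Cd8 and keratin-positive, and 0 in the splits and their differences. Leaving out 1 library leaves no replicate and so no test or count, and the ratios of a library alone are compared by size only. Female and male library alone, Smad7 was at 0.63 and -0.24 and Ski at 0.28 and -0.037 in the Treg split, Skil at -0.17 and 0.23 and Tgfb1 at -0.026 and 0.082 in the Cd8 split, Tgfb1 at -0.32 and 0.13 in Treg over other Cd4, and Smad7 at 0.015 and 0.12 (-0.06 in the fit) and Ski at -0.19 and 0.19 in Treg over Cd8. Genes called among all tested ranged over the alternatives from 26 to 616 in the Cd8 split (43 as reported), 2117 to 3890 in Treg over Cd8 (3260), 707 to 3047 in other Cd4 over Cd8 (2465), 2755 to 8526 in keratin-positive over T cell classes (7627), 1 to 356 in the Treg split (1), 10 to 216 in the other Cd4 split (13), and 3 to 348 (3) and 6 to 169 (7) in the differences from the Cd8 split. Depth limits Tgfbr1 and Smad3, at 10 to 67 UMIs per library in Treg, other Cd4 and keratin-positive barcodes.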

Other observations

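The 1691 barcodes in no class had 392 female and 325 male CPM of Tgfb1, 130 and 81.5 CPM of Pmepa1, 181 and 201 CPM of Smad7, and 92.7 and 95.3 CPM of Tgfbr2. Their median depth was 11153 female and 7854 male UMIs.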
